A study of Mus musculus with 9 samples.

Results

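The 10 genes described here encode integrin chains of platelets, mast cells and progenitors, together with the leukocyte integrins of myeloid cells. They were taken by symbol (Itga2, Itga2b, Itgb3, Itga4, Itga6, Itgb7, Itgb5, Itgam, Itgax and Itgb2) from 18797 distinct gene symbols on the array, and each had 1 transcript cluster, a set of probes summarised as 1 signal. Expression was measured on 9 arrays, 3 for each of 3 retroviruses put into mouse blood progenitors. The R396Q group received GATA2 with the R396Q substitution, the wild type group received unchanged GATA2, and the empty vector group received MIE, a vector that carries EGFP alone. GATA2 binds DNA through zinc fingers and is needed for early blood cells and for mast cells. All 3 groups shared the same history: C57BL/6 females aged 8 weeks had been given 5-fluorouracil (150 mg/kg) 6 days before their marrow was taken, Lin-Sca+Kit+ cells were enriched on magnetic columns, infected on each of 2 days running, and GFP-positive cells were sorted at 72 h. The labels give neither the species of the GATA2 cDNA nor the number of mice behind a group.

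Integrins are receptors for matrix and for other cells, each built of an alpha and a beta chain, and most switch between a resting and an active form on signals from inside the cell. On platelets the chains encoded by Itga2b (CD41) and Itgb3 (CD61) pair as the fibrinogen receptor, and the Itga2 chain pairs with that of Itgb1 as a collagen receptor. Itga4 pairs with Itgb1 or Itgb7 and holds progenitors and mast cell precursors to vessel walls and stroma, while Itga6 is a laminin receptor chain found on stem cells, progenitors and platelets. The leukocyte chain of Itgb2 (CD18) pairs with Itgam (CD11b), Itgax (CD11c) or Itgal on myeloid and lymphoid cells.

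The check on the transduced gene gave Gata2 log2 signals of 10.65, 10.72 and 10.53 with R396Q, 11.50, 11.24 and 10.94 with wild type, and 9.87, 9.67 and 9.65 with empty vector. Over empty vector it was 2.81-fold higher with wild type (limma adjusted p = 0.0016) and 1.87-fold higher with R396Q (0.0394), a call lost in 7 of 9 fits that left out an array, all but those without WT replicate 1 or 3 (up to 0.155). Gata2 was 0.59 lower on the log2 scale with R396Q than with wild type (limma adjusted p = 0.0633, and 0.0222 with the replicate number as a block), and this gap in the Gata2 signal runs alongside every difference between the forms given below. Its part in those differences was not tested. How much of the Gata2 signal came from the cDNA, whose species is not given, and how much from the cells' own gene cannot be told. The labels call the cells HSC and the tissue blood, although the protocol takes them from marrow. Of 10 measured stem and progenitor markers, Procr and Esam lay at or below the array median on all 9 arrays. In limma 2 of the 10 were called higher and 3 lower with wild type over empty vector (3 and 4 with the block). With R396Q, 1 was called higher and 1 lower than with empty vector, and 2 higher and 1 lower than with wild type. Over all clusters the shares called higher and lower were 4.64% and 4.35% in the first comparison (8.0% and 9.41% with the block). They were 0.66% and 0.569% in the second and 2.67% and 3.08% in the third. Kit, the stem cell factor receptor, was at 10.3 to 10.6 with R396Q, 9.4 to 9.5 with wild type and 12.2 to 12.4 with empty vector. Cd34 averaged 12.80 with R396Q, 8.58 with wild type and 13.21 with empty vector, and Slamf1 averaged 10.36, 10.68 and 7.11 in the same order of groups. Arrays that carry the same replicate number shifted together, and p-values or counts of calls with that number as a block are given where they change a call or a count. Both comparisons against empty vector rest on the same 3 empty vector arrays. These are bulk signals, in which fewer cells of a type and less RNA per cell cannot be told apart.

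With wild type GATA2, Itga2, Itga2b, Itgb3, Itgb7 and Itga6 were higher than with empty vector, while Itgb5 was lower. The dim signal of Itgax was lower as well. With R396Q, Itga6 was also called higher than with empty vector, Itga2b and Itgb3 had levels between those of the other groups, and Itga2 and Itgb7 were close to their empty vector levels. Between wild type and empty vector, 5 of the 10 genes were called higher, against 4.64% of all 21072 clusters, and 2 were called lower, against 4.35% (limma, Benjamini-Hochberg adjusted p under 0.05 over all clusters). The 3 wild type arrays did not overlap the 3 empty vector arrays for any of the 10 genes, with 7 above (10.8% of all clusters) and 3 below (11.8%). Between R396Q and empty vector 1 gene was called higher (0.66% of all clusters) and 0 lower (0.569%) in limma. Between R396Q and wild type 4 genes were called lower (3.08% of all clusters) and 0 higher (2.67%). An unadjusted p under 0.05 in limma was reached by 10, 5 and 7 of the 10 genes in these 3 comparisons, in the order given. The share of all clusters at that level was not counted, here or for the lists below. With R396Q, 4 genes lay above (6.98% of all clusters) and 2 below (7.1%) every empty vector array, and 1 lay above (11%) and 6 below (9.59%) every wild type array. The median change over the 10 genes was 1.04, 0.13 and -1.16 on the log2 scale for wild type minus empty vector, R396Q minus empty vector and R396Q minus wild type, beside medians of -0.01, -0.01 and 0.00 over all clusters. The shares are over all clusters, 4412 of which had fewer than 6 distinct values over the 9 arrays, while each of the 10 genes had 8 or 9. With those clusters left out, 2176 were called between wild type and empty vector, against 1894 with them. The genes were chosen with earlier results of these arrays known, so these shares describe the 10 genes and are no test of them as a set.

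**Figure D1:**
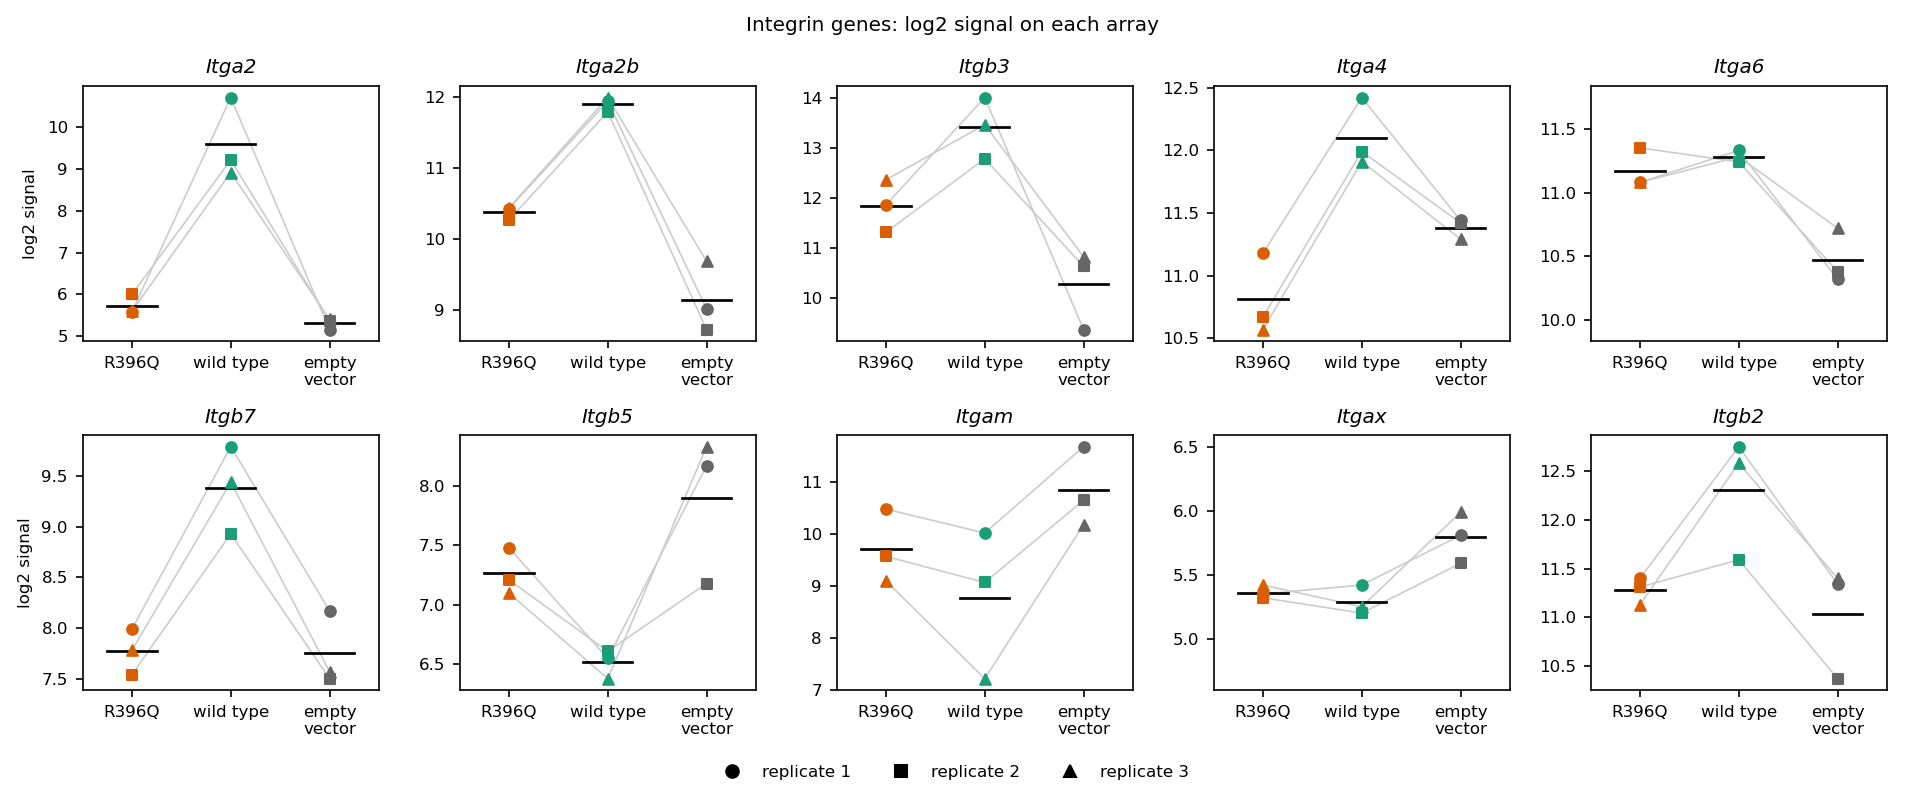
Log2 signal (vertical axis, own scale in each panel) of the 10 integrin genes on each array with R396Q, wild type GATA2 or empty vector. Points are single arrays, symbols and grey lines mark the replicate number, and black bars are means of 3 arrays. Itga2, Itga2b, Itgb3, Itga4, Itgb7 and Itgb2 are highest with wild type, and Itga4 is the gene whose R396Q arrays all lie below the empty vector arrays while its wild type arrays all lie above them.

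Promoter sequences of the 4 genes called lower with R396Q than with wild type are shown because these genes moved together in that comparison, and that of Itgax because it held the AGATAA form of the GATA motif. RefSeq (GRCm38.p6) gave promoters for 7 of the 10 genes, and the 250 bases before the start of transcription were searched on both strands for 3 motifs. The first was the GATA motif, searched as AGATAA, with the last base changed as AGATAG, with the first base changed as TGATAA, and with both changed as TGATAG. The others were GGAAG, the core of ETS factor sites, and the longer GAGGAAG, which contains that core. Capitals mark the GATA letters and GGAAG on either strand, so that a match on the reverse strand is printed as its complement, such as CTTCC.
Itga2b (chr11:102469884-102470133, minus strand): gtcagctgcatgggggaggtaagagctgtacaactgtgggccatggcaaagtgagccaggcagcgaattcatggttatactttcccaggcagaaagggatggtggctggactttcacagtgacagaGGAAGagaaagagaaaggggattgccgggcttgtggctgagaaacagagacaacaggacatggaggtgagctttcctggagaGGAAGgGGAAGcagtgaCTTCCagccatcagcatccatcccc
Itga2 (chr13:114932101-114932350, minus strand): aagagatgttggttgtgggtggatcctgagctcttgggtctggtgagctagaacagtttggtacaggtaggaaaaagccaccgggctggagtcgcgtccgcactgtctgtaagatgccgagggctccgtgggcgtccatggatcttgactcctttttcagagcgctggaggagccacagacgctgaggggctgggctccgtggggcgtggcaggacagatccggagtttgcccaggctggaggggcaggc
Itga4 (chr2:79255176-79255425, plus strand): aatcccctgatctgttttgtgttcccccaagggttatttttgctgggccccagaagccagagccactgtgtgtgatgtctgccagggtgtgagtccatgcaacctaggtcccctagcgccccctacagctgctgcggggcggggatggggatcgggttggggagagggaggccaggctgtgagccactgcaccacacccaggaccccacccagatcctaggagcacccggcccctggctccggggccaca
Itgb7 (chr15:102231936-102232185, minus strand): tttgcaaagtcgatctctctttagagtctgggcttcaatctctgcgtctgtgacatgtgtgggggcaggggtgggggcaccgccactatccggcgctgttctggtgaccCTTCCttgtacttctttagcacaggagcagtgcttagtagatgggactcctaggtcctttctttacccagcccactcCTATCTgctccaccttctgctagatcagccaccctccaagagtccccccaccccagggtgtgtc
Itgax (chr7:128129300-128129549, plus strand): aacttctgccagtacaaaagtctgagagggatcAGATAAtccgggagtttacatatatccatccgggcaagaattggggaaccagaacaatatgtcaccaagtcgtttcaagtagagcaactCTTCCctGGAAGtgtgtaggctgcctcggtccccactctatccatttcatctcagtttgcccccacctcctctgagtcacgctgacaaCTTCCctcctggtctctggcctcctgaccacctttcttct
A GATA motif was present in 2 of the 7 promoters, those of Itgb7 (bases -64 to -59, counted from the start site) and Itgax (-217 to -212), beside 26.5% of all 32851 promoters. The Itga2b promoter held GGAAG 4 times, and at -126 and at -44 it began the longer GAGGAAG, which 2 of the 7 promoters (Itga2b and Itgam, there at -84) and 10.6% of all promoters hold at least once. GGAAG was found in 4 of the 7 promoters (Itga2b, Itgb7, Itgam and Itgax), beside 64.1% of all. None of the motifs occurred in these 250 bases of Itga2 or Itga4. The matches are letters in a window and not measured binding.

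The fibrinogen receptor chains both followed the order wild type, then R396Q, then empty vector, with no overlap at either step. Itga2b had log2 signals of 10.43, 10.27 and 10.44 with R396Q, 11.94, 11.79 and 11.99 with wild type, and 9.02, 8.73 and 9.69 with empty vector. The R396Q and wild type arrays each lay close together and the empty vector arrays spread more widely, with replicate 3 the highest of them. Wild type exceeded empty vector 6.76-fold (2.76, SE 0.22, limma adjusted p = 0.000848), and R396Q lay 2.88-fold below wild type (-1.52, SE 0.22, adjusted p = 0.0112). Within replicate numbers that second difference was -1.51, -1.52 and -1.55. R396Q was 2.35-fold above empty vector (1.23, SE 0.22), a difference that did not pass in limma (adjusted p = 0.0606) and did so with the replicate block (0.0358), without MIE replicate 3 (1.5, adjusted p = 0.0143) and under 6 other settings of scaling, weighting or filtering (lowest 0.0267).

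Itgb3, the partner chain, was at 11.86, 11.31 and 12.36 with R396Q, 14.00, 12.78 and 13.46 with wild type, and 9.37, 10.63 and 10.82 with empty vector. The groups stood apart in the same order as for Itga2b, but arrays within a group differed by over 1 on the log2 scale. Itgb3 rose 8.82-fold with wild type over empty vector (3.14, SE 0.49, limma adjusted p = 0.0102). The R396Q mean of 11.84 lay between, 1.57 above empty vector (95% interval 0.41 to 2.73, adjusted p = 0.251) and 1.57 below wild type (-2.73 to -0.41, adjusted p = 0.141), and neither step passed the test. Its difference between wild type and empty vector was 4.62 for replicate 1 and 2.16 and 2.64 for replicates 2 and 3.

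Itga2, the alpha chain of the platelet collagen receptor, had log2 signals of 5.58, 6.00 and 5.60 with R396Q, 10.70, 9.21 and 8.91 with wild type, and 5.16, 5.37 and 5.40 with empty vector. Every wild type array, at 8.91 or above, stood clear of all other arrays, at 6.00 or below. Itga2 rose 19.6-fold with wild type over empty vector (4.29, SE 0.44, limma adjusted p = 0.00204). With R396Q its signal lay 14.7-fold under that with wild type (-3.88, SE 0.44, adjusted p = 0.00404). R396Q exceeded empty vector by 0.42 (95% interval -0.62 to 1.45, adjusted p = 0.780). The 6 arrays without wild type GATA2 lay at or below the array median of 6.06 to 6.19 and above the lower quartile of 4.54 to 4.60, a range in which the deposited values do not show whether a signal exceeds background, so the size of both folds is uncertain.

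Markers of the platelet lineage, like these 3 genes, were mostly higher with wild type than in both other groups. Of 11 measured, 7 were called higher (4.64% of all clusters) and 0 lower (4.35%) with wild type over empty vector. With R396Q against wild type, 0 were called higher (2.67%) and 6 lower (3.08%) by the same limma test. Their mean log2 signal per array was 6.47 to 7.52 with R396Q, 9.05 to 9.87 with wild type and 7.0 to 7.63 with empty vector, and 0 of the 11 lay at or below the lower quartile on all arrays. None of the 11 was called between R396Q and empty vector, with 1 at an unadjusted p under 0.05 and 0 called with the replicate block. Shares of all clusters called higher and lower there were 0.66% and 0.569% (1.66% and 1.34% with the block), so 0 of 11 lies near them. The median change of the 11 there was -0.22, while Itga2b and Itgb3 were 1.23 and 1.57 higher with R396Q, without passing in limma. The part of these markers in the integrin differences was not tested.

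Itga4 was called lower with R396Q than with wild type, with the empty vector arrays between the 2 forms. It had log2 signals of 11.18, 10.67 and 10.57 with R396Q, 12.42, 11.99 and 11.91 with wild type, and 11.44, 11.42 and 11.29 with empty vector. Every wild type array was above, and every R396Q array below, the narrow band of empty vector arrays. R396Q arrays averaged 2.45-fold less than wild type arrays (-1.29, SE 0.19, limma adjusted p = 0.0115), with differences of -1.24, -1.31 and -1.33 within replicate numbers. Against empty vector, wild type was 0.72 higher (SE 0.19, adjusted p = 0.0666, and 0.0131 with the replicate block) and R396Q was 0.57 lower (95% interval -1.03 to -0.12, adjusted p = 0.284). The excess with wild type over empty vector also passed without R396Q replicate 1 (adjusted p = 0.0369) and under 5 other settings of scaling or filtering (lowest 0.0336). The call between the forms was lost when only those 6 arrays were fitted (adjusted p = 0.0598).

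Itgb7, a beta chain that pairs with Itga4 and guides mast cell precursors into the gut in mice, was at 7.99, 7.54 and 7.78 with R396Q, 9.79, 8.93 and 9.44 with wild type, and 8.17, 7.50 and 7.57 with empty vector. R396Q and empty vector arrays intermingled, and all wild type arrays lay above both. Itgb7 rose 3.11-fold with wild type over empty vector (1.64, SE 0.27, limma adjusted p = 0.0122), and that call was lost when only those 6 arrays were fitted (adjusted p = 0.0564). R396Q signals were 3.07-fold below those with wild type (-1.62, SE 0.27, adjusted p = 0.0173), a call lost without R396Q replicate 2 or 3 or wild type replicate 1 or 3 (adjusted p up to 0.0690). The difference of R396Q from empty vector was 0.02 (95% interval -0.62 to 0.66).

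Of 11 mast cell markers, which include Kit from the stem cell list, 5 were called higher and 1 (Kit) lower with wild type over empty vector, and with R396Q over empty vector Kit was called, again lower, with 0 called higher. With the block 2 were called higher and 1 lower in that last comparison, the 2 being Cpa3 (2.00, adjusted p = 0.0244), a mast cell protease, and Slc18a2 (1.35, adjusted p = 0.0259), an amine transporter. With R396Q against wild type, 4 were called lower and Kit was called higher. The mean log2 signal of the list was 8.90 to 9.47 with R396Q, 9.60 to 10.76 with wild type and 7.96 to 9.05 with empty vector. Mrgprb1, a receptor of mature connective tissue mast cells, lay at or below the lower quartile on all 9 arrays. Basophil and erythroid markers moved with wild type as well. Of 7 basophil markers, 4 were called higher with wild type over empty vector and 3 lower with R396Q than with wild type (list means of 9.86 to 10.59 with R396Q, 12.12 to 13.07 with wild type and 9.21 to 10.75 with empty vector), and 6 and 4 with the block. Of 10 erythroid markers, 8 were called higher and 8 lower in the same 2 comparisons (6.39 to 6.70, 9.63 to 10.84, and 6.27 to 6.55 in the same order of groups). Of all clusters, 4.64% were called higher and 4.35% lower with wild type over empty vector (8.0% and 9.41% with the block). Between R396Q and empty vector these shares were 0.66% and 0.569% (1.66% and 1.34% with the block). For R396Q against wild type they were 2.67% and 3.08% (7.1% and 5.95% with the block). The part of the mast cell, basophil and erythroid markers in the values of Itga2, Itga2b, Itgb3, Itga4, Itgb7 and Itga6 was not tested.

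Itga6 was higher with both forms than with empty vector. Its log2 signals were 11.08, 11.35 and 11.08 with R396Q, 11.33, 11.24 and 11.28 with wild type, and 10.32, 10.38 and 10.72 with empty vector. R396Q and wild type arrays overlapped and all 6 lay above the empty vector arrays. Over empty vector, Itga6 rose 1.76-fold with wild type (0.81, SE 0.12, limma adjusted p = 0.0078) and 1.62-fold with R396Q (0.70, SE 0.12, adjusted p = 0.0497). The R396Q call sat at the threshold, was lost with the replicate block (0.0667) and was kept in 1 of 9 fits that left out an array, the one without MIE replicate 3 (adjusted p up to 0.154 in the others). R396Q differed from wild type by -0.11, with a 95% interval of -0.39 to 0.17.

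Itgb5 encodes a beta chain that pairs with that of Itgav as a vitronectin receptor. It was at 7.48, 7.21 and 7.10 with R396Q, 6.55, 6.61 and 6.38 with wild type, and 8.17, 7.18 and 8.33 with empty vector. Wild type arrays were the lowest and close together, and MIE replicate 2 fell among the R396Q arrays, away from the other two of its group. Itgb5 fell 2.60-fold with wild type below empty vector (-1.38, SE 0.29, limma adjusted p = 0.0313), a call lost in 8 of 9 fits that left out an array, all but the one without MIE replicate 2 (adjusted p up to 0.0958). R396Q lay 0.63 below empty vector (95% interval -1.32 to 0.06, adjusted p = 0.464) and 0.75 above wild type (0.06 to 1.44, adjusted p = 0.240). Without MIE replicate 2 these 2 differences were -0.99 and 0.75 and passed the test (adjusted p = 0.0332 and 0.0226).

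Of the leukocyte chains, Itgam and Itgax were lowest and Itgb2 highest with wild type. Itgam, the alpha chain of the complement receptor of neutrophils and macrophages, had log2 signals of 10.47, 9.56 and 9.09 with R396Q, 10.01, 9.06 and 7.21 with wild type, and 11.67, 10.64 and 10.17 with empty vector. Replicate 1 had the highest signal and replicate 3 the lowest in each group, and wild type was the lowest and empty vector the highest group within every replicate number. Wild type arrays averaged 4.20-fold less Itgam signal than empty vector arrays (-2.07, SE 0.77), which did not pass in limma (adjusted p = 0.173) and passed with the replicate block (SE 0.33, adjusted p = 0.0159). Its size rests on single wild type arrays, at -1.29 without WT replicate 3 and -2.70 without WT replicate 1. R396Q was 1.12 below empty vector, with differences of -1.21, -1.08 and -1.08 within numbers (adjusted p = 0.636, and 0.159 with the block). R396Q exceeded wild type by 0.95 (95% interval -0.89 to 2.78), by 0.17 without WT replicate 3, the array at 7.21, and by 1.57 without WT replicate 1.

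Itgb2, the shared beta chain, had its highest signals with wild type. It was at 11.40, 11.31 and 11.13 with R396Q, 12.75, 11.59 and 12.58 with wild type, and 11.34, 10.37 and 11.40 with empty vector. All wild type arrays were above the rest, with replicate 2 the lowest in wild type and in empty vector. Wild type was 2.42-fold above empty vector (1.27, SE 0.38, limma adjusted p = 0.0935, and 0.0346 with the replicate block), with differences of 1.41, 1.23 and 1.19 within numbers. The excess also passed without WT replicate 2 (1.63, adjusted p = 0.0382), with quantile normalization (0.0455) and without the dimmest 50% of clusters (0.0427). R396Q was 1.03 below wild type (95% interval -1.92 to -0.13, adjusted p = 0.212) and 0.25 above empty vector (-0.65 to 1.14).

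Itgax, an alpha chain best known from dendritic cells, had log2 signals of 5.35, 5.32 and 5.42 with R396Q, 5.42, 5.20 and 5.25 with wild type, and 5.81, 5.59 and 5.99 with empty vector. All 9 values were at or below the array median, and the empty vector arrays were the highest. In that range the values do not show signal above background, so the size of any fold of Itgax is uncertain. Its signal was 1.42-fold lower with wild type than with empty vector (-0.51, SE 0.10, limma adjusted p = 0.0285), a call lost in 7 of 9 fits that left out an array, all but those without MIE replicate 2 or WT replicate 1 (adjusted p up to 0.0865). R396Q was 0.43 below empty vector (SE 0.10, adjusted p = 0.133) and differed from wild type by 0.07 (95% interval -0.17 to 0.32).

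Neutrophil markers and monocyte and macrophage markers had median changes of -3.93 and -3.32 on the log2 scale with wild type over empty vector. Itgam and the dim Itgax were lower in that comparison as well, while Itgb2 was higher. Of 14 neutrophil markers 5 were called lower and 1, Cxcr2, higher with wild type over empty vector (the Cxcr2 call lost without WT replicate 1, adjusted p = 0.0538), with a list mean of 9.74 to 12.66 per array with R396Q, 7.38 to 9.87 with wild type and 10.59 to 13.30 with empty vector. With the block 10 of the 14 were called lower and 1 higher. With R396Q 1 of the 14 was called higher and 1 lower than with empty vector (1 and 2 with the block), and 3 were called higher and 0 lower than with wild type (9 and 0 with the block). Of 12 monocyte and macrophage markers 6 were called lower and 0 higher with wild type over empty vector (7 and 0 with the block), with a list mean of 7.40 to 8.09 with R396Q, 6.82 to 7.43 with wild type and 8.89 to 10.34 with empty vector. With R396Q, 4 of these 12 were called lower and 0 higher than with empty vector (5 and 0 with the block), and 1 higher and 1 lower than with wild type (3 and 2 with the block). None of the 14 or of the 12 lay at or below the lower quartile on all 9 arrays, and 2 of 11 dendritic cell markers, Xcr1 and Clec9a, did. The dendritic cell list, with means of 5.52 to 5.76 with R396Q, 5.85 to 5.98 with wild type and 5.92 to 6.14 with empty vector, had 2 markers called higher and 3 lower with wild type over empty vector, 0 and 2 with R396Q over empty vector (0 and 1 with the block), and 0 and 2 with R396Q than with wild type. Shares of all clusters called higher and lower were 4.64% and 4.35% for wild type over empty vector (8.0% and 9.41% with the block). They were 0.66% and 0.569% for R396Q over empty vector (1.66% and 1.34% with the block). For R396Q against wild type they were 2.67% and 3.08% (7.1% and 5.95% with the block). The part of these myeloid markers in the values of Itgam, Itgax and Itgb2 was not tested.

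**Figure D2:**
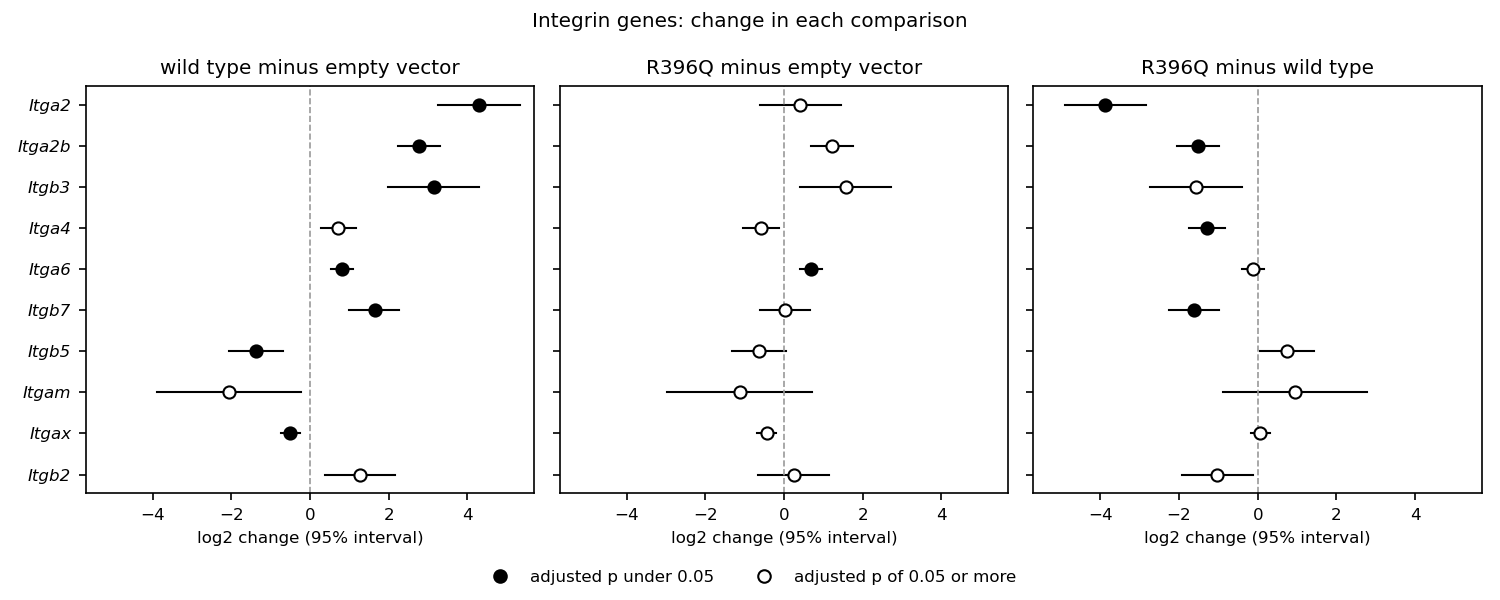
Change of each integrin gene on the log2 scale (horizontal axis) with its 95% interval from limma, for wild type minus empty vector, R396Q minus empty vector and R396Q minus wild type (3 arrays per group). Filled points passed the test at an adjusted p under 0.05. The calls are 5 higher and 2 lower in the left panel, 1 higher in the middle panel and 4 lower in the right panel.

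With the replicate block all 10 genes were called between wild type and empty vector, 7 higher (8.0% of all clusters) and 3 lower (9.41%). Between R396Q and empty vector the gene called with the block was Itga2b (higher, 1.66% of all clusters) in place of Itga6, and 0 were called lower (1.34%). Between R396Q and wild type the same 4 genes, Itga2, Itga2b, Itga4 and Itgb7, were called lower with and without the block (5.95% with it), and 0 were called higher (7.1%).

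None of the other integrin genes was called without the block. Of 17 listed, 16 were measured, and Itga1 shares its cluster with Pelo. In limma 0 of the 16 were called in any of the 3 comparisons, with 1, 0 and 1 at an unadjusted p under 0.05 for wild type minus empty vector, R396Q minus empty vector and R396Q minus wild type. Of all clusters, 4.64% were called higher and 4.35% lower in the first, 0.66% and 0.569% in the second, and 2.67% and 3.08% in the third. A count of 0 among 16 genes lies near these shares. With the block 1, 1 and 2 passed: Itga8 (0.18) in the first, Itga5 (-0.54) in the second, and both, by -0.16 and -0.42, in the third. The shares of all clusters called in those directions with the block were 8.0% (higher), 1.34% (lower) and 5.95% (lower). Of the 16, 11 lay at or below the array median on all 9 arrays, in the range of dim signals. Itga8, at 4.65 to 5.00, was among these 11. The genes named next were picked as partners of the 10, with their values known. Itgb1, the common partner of Itga2, Itga4 and Itga6, had a mean log2 signal of 11.58 ± 0.12 with R396Q, 11.67 ± 0.27 with wild type and 11.62 ± 0.28 with empty vector (SD, n = 3 each). Its difference between wild type and empty vector was 0.05, with a 95% interval of -0.38 to 0.47. Itgav, the partner of Itgb3 and Itgb5, was 0.19 higher with wild type than with empty vector (-0.02 to 0.40). Many of its values were tied, with 4 distinct values over the 9 arrays. All R396Q arrays were at 8.05, and the wild type arrays were at 8.35, 8.05 and 8.05. Itgal, the alpha chain of the lymphocyte function antigen, was at 12.14, 11.34 and 11.69 with R396Q, 11.69, 10.40 and 11.37 with wild type, and 11.24, 10.48 and 10.96 with empty vector. All R396Q arrays of Itgal lay above the empty vector arrays, by 0.82 on average (95% interval -0.08 to 1.73, limma adjusted p = 0.459). It was the 1 gene of the 16 to do so, beside 6.98% of all clusters.

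Genes that switch integrins on and tie them to the cytoskeleton were called in both directions. Of 28 measured, 7 were called higher (4.64% of all clusters) and 3 lower (4.35%) with wild type over empty vector, with a median change of 0.18. With the block these counts were 11 (8.0% of all clusters) and 4 (9.41%). Parvb, an adaptor that links integrins to actin, was at 7.04, 7.11 and 7.35 with R396Q, 11.30, 10.23 and 11.89 with wild type, and 7.52, 6.96 and 7.45 with empty vector. Only its wild type arrays stood out, 14.3-fold above empty vector (3.83, SE 0.40, limma adjusted p = 0.00226), and R396Q was 15.8-fold below wild type (-3.98, SE 0.40, adjusted p = 0.00268). The small GTPases Rap1b and Rap1a promote the active form of integrins. With wild type over empty vector, Rap1b rose 1.54-fold (0.62, SE 0.05, adjusted p = 0.00064) and Rap1a 1.73-fold (0.79, SE 0.12, adjusted p = 0.00842). Rasgrp2, the exchange factor that activates Rap1 in platelets, fell 1.98-fold in the same comparison (-0.98, SE 0.11, adjusted p = 0.00341). Between R396Q and empty vector 1 of the 28 was called, Rap1b (0.29 higher, adjusted p = 0.0455), a call kept in 1 of 9 fits that left out an array, the one without MIE replicate 3. R396Q was below wild type for 3 of the 28, namely Parvb, Rap1b (-0.34, SE 0.05) and Vcl, which encodes vinculin (-1.08, SE 0.23, adjusted p = 0.0450), and 0 were called higher. With the block 9 were called lower and 3 higher than with wild type, the 3 being Rasgrp2 (0.50, adjusted p = 0.00377), Apbb1ip (0.60, adjusted p = 0.0138) and Parvg (0.47, adjusted p = 0.0194). Between R396Q and empty vector the block gave 1 higher (1.66% of all clusters) and 1 lower (1.34%). Without the block the shares of all clusters called higher and lower there were 0.66% and 0.569%. For R396Q against wild type they were 2.67% and 3.08%, and 7.1% and 5.95% with the block. The Vcl call was lost in 8 of 9 fits that left out an array, all but the one without WT replicate 3 (adjusted p up to 0.140). Fermt3, the kindlin that blood cell integrins need for activation, was at 13.44 ± 0.41 with R396Q, 14.57 ± 0.45 with wild type and 13.31 ± 0.47 with empty vector (SD, n = 3 each). Its excess of 1.26 with wild type over empty vector did not pass (adjusted p = 0.0704) and did with the replicate block (0.000438), and R396Q was 1.13 lower than wild type (adjusted p = 0.128, and 0.000913 with the block). It falls outside the naming rule and was chosen after its values were seen.

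Among 20 measured genes of integrin ligands, 4 were called higher with wild type over empty vector (4.64% of all clusters). The same 4 were called lower with R396Q than with wild type (3.08%), with 0 called the other way in limma (4.35% and 2.67%). With the block 5 were called higher (8.0%) and 1, Icam1 (-0.74, adjusted p = 0.0226), lower (9.41%) with wild type over empty vector. Against wild type, R396Q had 0 called higher (7.1%) and 4 lower (5.95%) with the block. Vwf, a ligand of the fibrinogen receptor that also stands in the platelet list, was at 6.24, 5.84 and 5.88 with R396Q, 9.74, 9.54 and 9.91 with wild type, and 6.07, 5.94 and 6.41 with empty vector. Its R396Q arrays were 13.4-fold below wild type (-3.74, SE 0.17, limma adjusted p = 0.000155) and overlapped the empty vector arrays. Icam4, an adhesion molecule of red cell precursors, was 15.0-fold higher with wild type than with empty vector (3.91, SE 0.20). Cdh1 encodes E-cadherin, which the integrin of Itgae and Itgb7 binds, and its mean was 9.85 ± 0.64 with R396Q, 12.13 ± 0.43 with wild type and 8.42 ± 0.39 with empty vector (SD, n = 3 each). F11r, a junction protein that platelets and leukocytes carry, rose 2.89-fold with wild type over empty vector (adjusted p = 0.0454), a call kept in 1 of 9 fits that left out an array, the one without WT replicate 2. The calls of Cdh1 and F11r between R396Q and wild type were lost without R396Q replicate 3 or wild type replicate 1 or 3, and that of F11r also without R396Q replicate 2 (adjusted p up to 0.0570 and 0.0620). The fibrinogen genes Fga, Fgb and Fgg lay at or below the lower quartile on all 9 arrays. Between R396Q and empty vector 0 of the 20 were called in limma (0.66% of all clusters higher, 0.569% lower). Of the 20, 2 had an unadjusted p under 0.05 there and 1 was called higher with the block (1.66% of all clusters).

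**Figure D3:**
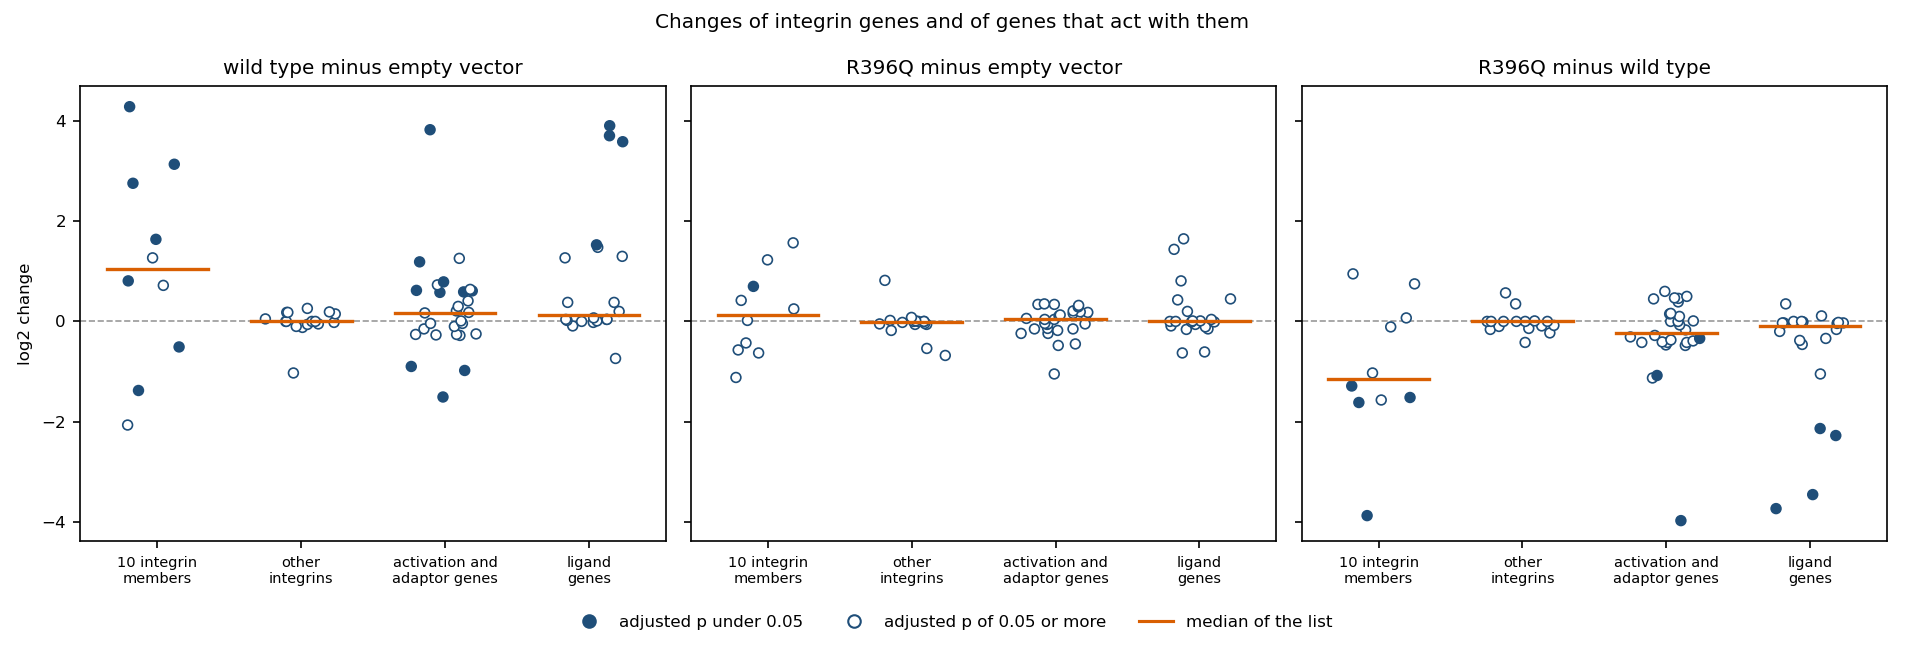
Change on the log2 scale (vertical axis) of the 10 integrin genes, the 16 other measured integrin genes, 28 activation and adaptor genes and 20 ligand genes in each comparison. Each point is 1 gene, filled points passed the limma test at an adjusted p under 0.05, and orange bars are list medians. The other integrin genes have no filled point, and the 10 integrin genes have medians of 1.04, 0.13 and -1.16 from left to right.

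The genes whose signals ran most like those of 3 of the integrins were taken from 18784 other named genes by the smallest root mean square difference of log2 values, each gene minus its own mean, over the 9 arrays. For Itga2b these were Cd9-ps (0.20), Acss2 (0.27), Slc18a2 (0.27), Alox5 (0.30) and Tmem64 (0.31), with Pearson correlations of 0.966 to 0.992 over the 9 arrays. Cd9-ps is a pseudogene of the tetraspanin gene Cd9, and probes may not tell the pair apart. For Itga6 they were Sun1 (0.12), Smim3 (0.13), Fli1 (0.13), Diaph1 (0.15) and Vezf1 (0.16), with correlations of 0.914 to 0.968. For Itgam the nearest were Gda (0.45), Lst1 (0.46), Themis2 (0.52), Fgd4 (0.52) and Ethe1 (0.54), with correlations of 0.900 to 0.933. The arrays share their groups and replicate numbers, so these values describe likeness and are not tested.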

How the data were processed

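The authors deposited 1 log2 value per transcript cluster and array for 21072 clusters, on the RMA scale, for which the submitters' processing notes name Affymetrix Expression Console. Versions and a genome build are not given in the sources used here. Per the labels, hybridisation was to Mouse Exon 1.0 ST arrays. The cluster identifiers begin with TC, a form that belongs to later whole-transcript designs. The array design is therefore uncertain. All 9 sample columns were used. Symbols came from the array annotation (18992 clusters with 1 symbol, 1390 with several, 690 with none), of which 18236 were matched by gene ID to RefSeq and 418 brought up to date. Where a symbol had several clusters, the one with the highest mean was used.

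All clusters entered 1 fit in limma 3.58.1 under R 4.3.3 (1 mean per group over 9 arrays, 6 residual and 0.956 prior degrees of freedom, no filter on expression). Tests were 2-sided and adjusted by Benjamini-Hochberg over 21072 clusters in each comparison, with 0.05 as the threshold. The fit was also run on simulated data with independent noise on each array. That run cannot show how the fit handles the shifts that arrays with the same replicate number share. The 10 genes, the lists and the rule for named genes (all 10, then called list members with the smallest p, and the nearest genes) were chosen with earlier results of these data known. Lists are described by counts and medians.

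Replicate numbers pair the arrays: correlations of deviations from group means were 0.451 to 0.693 for the 9 pairs of arrays that share a number across groups, and -0.537 to -0.0900 for pairs that do not. The labels do not say what a number stands for. No label says that the samples are separate mice or cultures, so p-values reflect only sample-to-sample spread, which may be technical, and 3 arrays per group limit the precision. Other settings were the block, fits on 2 groups, trend and robust options, array weights, other scalings, filters on dim or tied clusters, averaging clusters that share a symbol, and fits without 1 array at a time.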

Additional observations from a re-analysis of the deposited data

Results flagged for a closer look

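Itga4 drew attention because its wild type arrays all lay above, and its R396Q arrays all below, the empty vector arrays. R396Q minus wild type was -1.29 on the log2 scale (limma adjusted p = 0.0115), a direct test of the difference between the forms. The change against empty vector did not pass for R396Q (-0.57, adjusted p = 0.284) or for wild type (0.72, adjusted p = 0.0666). Groups of 3 arrays are too small for a test of single outlying samples.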

How the results depend on the processing

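Of 567 values of the 10 genes under 19 other settings, 505 kept their direction and their side of the threshold, 35 lost a call, 22 gained one and 5 changed sign. Those 5 were all near 0: Itgb7 with R396Q against empty vector was -0.07 with array weights and ran from -0.10 (without MIE replicate 2) to 0.23 over the fits that left out 1 array, below 0 also without MIE replicate 3 (-0.07) and R396Q replicate 1 (-0.09), and Itgb2 ran from -0.09 (without MIE replicate 2) to 0.43. With the replicate block 3667, 632 and 2750 clusters were called for wild type minus empty vector, R396Q minus empty vector and R396Q minus wild type, against 1894, 259 and 1211 without it, and 1, 1 and 2 other integrin genes against 0, 0 and 0. Fits on only the 2 groups compared called 1026, 94 and 772 clusters, 0 of the 10 genes lower with wild type and 0 higher with R396Q over empty vector. Genes lower with wild type numbered 1 without the dimmest 50% of clusters, a filter that drops Itgax. Genes higher with R396Q over empty vector numbered 2 with array weights, at least 6 distinct values, median subtraction and without the dimmest 30% or 50%, and 0 with trend and robust options. Leaving out each array gave 1285 to 1724, 85 to 304 and 650 to 1153 clusters. The middle count fell most without R396Q replicate 1 (98), 2 (85) or 3 (109), and the last without R396Q replicate 1 (650), 2 (702) or 3 (788). Among the 10 genes it gave 5 to 6 higher and 0 to 2 lower with wild type, 0 to 2 higher and 0 to 1 lower with R396Q over empty vector, 0 to 1 higher and 3 to 4 lower with R396Q than with wild type, and 0 to 1 other integrin genes with wild type. The cause of these shifts was not tested. The block changed no other call of the 10 genes than those given with the results. No scaling moved the median of all clusters by over 0.1.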

Other observations

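Pecam1, an adhesion molecule of platelets, leukocytes and endothelium, was highest with R396Q. Its log2 signals were 11.85, 11.71 and 11.55 with R396Q, 10.30, 10.47 and 9.88 with wild type, and 10.45, 10.05 and 10.44 with empty vector. R396Q was 2.80-fold above wild type (1.48, SE 0.18, limma adjusted p = 0.00541) and 2.62-fold above empty vector (1.39, SE 0.18, adjusted p = 0.0188), a call against empty vector that was lost without MIE replicate 1 or 3 or any 1 R396Q array (adjusted p up to 0.0876). It was named after its values were seen.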
